A study of Mus musculus with 9 samples.

Results

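The 10 genes described here encode the enzymes of de novo lipogenesis in the liver, together with regulators of the pathway: Pklr, Acly, Me1, Acaca, Acacb, Fasn, Elovl6, Scd1, Thrsp and Mlxipl. They were selected by symbol, with no measured value in the rule. All 10 were found among the 54532 gene IDs of the count table, and all 10 passed the filter on low counts that left 14763 genes for testing. Expression was measured by RNA-seq in livers of male ApoE-/- mice on the C57BL/6 background, which lack apolipoprotein E, with 3 libraries in each of 3 groups. The normal diet group ate no high-fat diet, and the labels give neither its age at death nor any injections. The HFD + PBS group received a high-fat diet from 4 weeks of age for 20 weeks and then chow for 1 week, with intraperitoneal PBS at 25, 26 and 27 weeks and death at 29 weeks. The diet supplied 4700 kcal/kg, and fat made up 41%, carbohydrate 43% and protein 17% of its calories. The HFD + IgG1 group had the same diet and ages, with 3 mg of recombinant human IgG1 at each injection. What the antibody binds is not named in the labels, and 2 of its 3 libraries carry a treatment label that reads IgG2 or IgG3 while their titles and the series design place them in the IgG1 group. Livers were chosen for sequencing by their Oil Red O staining and triglyceride content. Diet, age and injection cannot be told apart in any comparison with the normal diet group.

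De novo lipogenesis makes fatty acids from carbohydrate in the cytosol of hepatocytes. Glycolysis delivers pyruvate, mitochondria export it as citrate, and the enzymes studied here cleave the citrate to acetyl-CoA, carboxylate that to malonyl-CoA, build palmitate with NADPH as reductant, and then elongate and desaturate it. Transcription of the pathway is driven by SREBP-1c, the product of Srebf1 that insulin and liver X receptors induce, and by the carbohydrate response factor ChREBP, the product of Mlxipl.

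Promoter sequence from RefSeq (build GRCm38.p6) was matched for 9 of the 10 genes, in 12 windows of the 250 bases before an annotated start; Scd1 was not matched. The 4 windows below belong to Pklr, Me1, Fasn and Mlxipl, genes with 4 different patterns over the groups, picked after their values were seen. Bases that fall in an exon of the same gene in GENCODE M21 were left out, 51 for Pklr and 39 for Me1. Capitals mark matches to the letters CCAAT (the CCAAT box), CACGTG (the E-box), GGGCGG (the GC box), TCACNCCAC (an SREBP site) and the carbohydrate response element, a pair of degenerate E-boxes, on either strand. The windows are chr3:89136373-89136571 on the plus strand for Pklr, chr9:86695954-86696164 on the minus strand for Me1, chr11:120824548-120824797 on the minus strand for Fasn and chr5:135089640-135089889 on the plus strand for Mlxipl.
Pklr: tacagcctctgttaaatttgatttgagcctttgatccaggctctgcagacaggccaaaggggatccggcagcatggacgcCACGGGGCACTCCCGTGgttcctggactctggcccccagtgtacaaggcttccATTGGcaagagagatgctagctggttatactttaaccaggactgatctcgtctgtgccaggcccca
Me1: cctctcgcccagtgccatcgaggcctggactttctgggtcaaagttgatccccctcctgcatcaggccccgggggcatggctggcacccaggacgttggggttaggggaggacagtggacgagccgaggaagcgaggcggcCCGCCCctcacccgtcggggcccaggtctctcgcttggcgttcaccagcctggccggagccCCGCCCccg
Fasn: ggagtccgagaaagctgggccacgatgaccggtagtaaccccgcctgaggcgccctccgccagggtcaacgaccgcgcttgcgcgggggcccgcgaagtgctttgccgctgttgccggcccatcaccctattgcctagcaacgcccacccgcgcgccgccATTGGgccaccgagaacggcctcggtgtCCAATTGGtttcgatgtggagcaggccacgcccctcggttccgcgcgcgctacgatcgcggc
Mlxipl: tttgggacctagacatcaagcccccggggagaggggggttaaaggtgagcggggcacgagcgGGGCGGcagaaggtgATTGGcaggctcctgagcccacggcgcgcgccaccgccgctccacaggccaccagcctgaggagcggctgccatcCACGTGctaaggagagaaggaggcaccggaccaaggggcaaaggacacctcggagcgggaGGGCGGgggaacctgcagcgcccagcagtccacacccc
The Pklr window lies before the second of its RefSeq starts, inside the gene, and holds the only full match to the carbohydrate response element among the 12 windows, 170 bases before that start. A match to this element was found in 0.454% of 32851 RefSeq promoter windows of 250 bases. The Fasn window holds 3 CCAAT boxes, at 90, 62 and 59 bases before the start, of which the last 2 overlap. CCAAT boxes matched in 6 of the 12 windows and in 33.8% of all windows. Mlxipl's window holds an E-box at 98 bases (6.02% of all windows) besides a CCAAT box and 2 GC boxes, and the 2 capitalised runs of Me1 are GC boxes at 109 and 48 bases (32.7% of all windows). The SREBP site matched in 1 window, the second of Mlxipl, against 1.05% of all windows. A match describes letters only, and binding was not measured.

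Library totals ran from 16215194 to 18538463 counts, and 3 libraries were at odds with their labels. HFD + IgG1 replicate 5 had 235888 Apoe counts where the other 8 libraries had 225 to 1655. Normal diet replicate 5 and HFD + PBS replicate 6 had no counts of 4 Y-linked genes, which allows up to 3, and had 17065 and 10970 counts of Xist, where the other 7 libraries had at most 4. These libraries were kept. Values without them are given for the 10 genes and for those of the other genes and lists whose difference between the high-fat groups moved by over 1.5 times. The labels do not say how the replicates were housed or processed, so p-values measure the spread between these libraries. In bulk liver, fewer cells of a type and less RNA per cell cannot be told apart.

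Values below are CPM, a gene's counts scaled to a common library size with edgeR's TMM factors, listed in the order of replicates 4, 5 and 6 for normal diet, 3, 4 and 6 for HFD + PBS, and 5, 6 and 7 for HFD + IgG1. Tests are edgeR's quasi-likelihood test with Benjamini-Hochberg adjustment over all 14763 genes, and every p below is from that test unless another tool is named. A log2 fold change is the first group minus the second, with its standard error (SE).

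Carbon enters the pathway through pyruvate kinase and ATP citrate lyase. Pklr (ENSMUSG00000041237, chromosome 3, 89136142 to 89146784), which encodes the liver pyruvate kinase of the last step of glycolysis, stood at 53.9, 50.4 and 51.8 CPM on normal diet, 39.2, 53.3 and 39.2 CPM in HFD + PBS, and 129, 64.9 and 80.7 CPM in HFD + IgG1. Every HFD + IgG1 library lay above the 6 others, while the other groups overlapped. Against HFD + PBS the mean was 2.08 times as high, a log2 fold change of 1.06 (SE 0.24, adjusted p = 0.14 by edgeR), and against normal diet the log2 fold change was 0.81 (SE 0.24, adjusted p = 0.555 by edgeR). HFD + PBS and normal diet differed by -0.24 (SE 0.24, adjusted p = 0.588 by edgeR). Pklr shares 711 of its 3236 exonic bases with Hcn3 on the opposite strand, which had 11 to 52 counts per library against 760 to 1805 for Pklr.

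Acly (ENSMUSG00000020917, chromosome 11, 100476353 to 100528000), which encodes the lyase that releases cytosolic acetyl-CoA from citrate, stood at 128, 130.3 and 155 CPM on normal diet, 199.7, 193.5 and 140.4 CPM in HFD + PBS, and 345, 198 and 211 CPM in HFD + IgG1. The HFD + IgG1 libraries were all above those of normal diet, and HFD + PBS overlapped both. Means were 138 ± 14.6, 178 ± 32.6 and 251 ± 81.7 CPM (SD, n = 3). The log2 fold change was 0.37 (SE 0.24) for HFD + PBS against normal diet, 0.50 (SE 0.24) for HFD + IgG1 against HFD + PBS, and 0.87 (SE 0.24, adjusted p = 0.51 by edgeR) for HFD + IgG1 against normal diet.

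The gene of reducing power was the only 1 of the 10 that was lower in HFD + PBS than on normal diet without overlap. Me1 (ENSMUSG00000032418, chromosome 9, 86581371 to 86695953) encodes cytosolic malic enzyme, which makes NADPH while turning malate into pyruvate. It stood at 92.1, 69.6 and 122 CPM on normal diet, 16.3, 18.0 and 25.0 CPM in HFD + PBS, and 80.5, 24.1 and 70.0 CPM in HFD + IgG1. The HFD + PBS libraries were all below those of normal diet. In HFD + IgG1, replicates 5 and 7 reached the range of normal diet, and replicate 6 stayed within that of HFD + PBS. The HFD + PBS mean, 19.7 ± 4.60 CPM (SD, n = 3), was 0.209 of the normal diet mean of 94.5 ± 26.2 CPM, a log2 fold change of -2.26 (SE 0.43, adjusted p = 0.078 by edgeR). HFD + IgG1 against HFD + PBS gave 1.56 (SE 0.42, adjusted p = 0.14 by edgeR), and against normal diet -0.70 (SE 0.41, adjusted p = 0.748 by edgeR). The 2 comparisons with HFD + PBS share those 3 libraries, so the opposite signs are not independent. Mlxipl had the same signs as Me1 in the 3 comparisons, at -0.46, 0.38 and -0.09, with overlapping groups.

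G6pdx and Pgd lay on the other side from Me1. G6pdx, which encodes glucose-6-phosphate dehydrogenase of the pentose phosphate pathway, stood at 14.3, 13.6 and 11.1 CPM on normal diet, 72.0, 24.3 and 39.5 CPM in HFD + PBS, and 8.49, 23.7 and 8.15 CPM in HFD + IgG1. HFD + PBS was thus above both other groups without overlap, by a log2 fold change of 1.80 (SE 0.50, adjusted p = 0.122 by edgeR) against normal diet, and HFD + IgG1 was below HFD + PBS by -1.75 (SE 0.49, adjusted p = 0.14 by edgeR). Pgd, the next dehydrogenase of that pathway, had 1.20 (SE 0.33, adjusted p = 0.119 by edgeR) and -0.98 (SE 0.33, adjusted p = 0.142 by edgeR) in the same comparisons. Idh1, cytosolic isocitrate dehydrogenase, had means of 297 ± 44.2, 236 ± 18.9 and 387 ± 82.5 CPM (SD, n = 3), on the side of Me1. The ratio of Me1 to G6pdx CPM was 5.10 to 10.97 on normal diet and 0.226 to 0.739 in HFD + PBS. In HFD + IgG1 it was 9.48, 1.02 and 8.59. Of the 8 genes listed for NADPH supply, 0 passed edgeR's test in any comparison. At an unadjusted p under 0.05 there were 4 higher and 1 lower in HFD + PBS against normal diet, beside 20.8% of all genes. In HFD + IgG1 against HFD + PBS there were 2 higher and 2 lower, beside 24.2% of all genes. Without the 3 libraries that contradict their labels there were 0 in the latter, beside 8.4% of all genes. H6pd of this list was at -0.56 (SE 0.28) in the first comparison, on the side of Me1. Nnt lay further on that side in the same comparison, at -1.38 without HFD + IgG1 replicate 5 (unadjusted p = 0.0235 by edgeR). It was at -1.32 without the 3 libraries (unadjusted p = 0.104 by edgeR). DESeq2 called G6pdx, Pgd, Taldo1 and Tkt in HFD + PBS against normal diet, where it called 8.02% of all genes. In HFD + IgG1 against HFD + PBS it called G6pdx, Pgd and Idh1, beside 8.57% of all genes.

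G6pdx and Pgd are also expressed by leukocytes, and their values moved with neutrophil markers. The summed level of 8 neutrophil markers was 36.4 to 186 CPM on normal diet, 445 to 3955 CPM in HFD + PBS and 13.5 to 613 CPM in HFD + IgG1. HFD + PBS replicate 3 was highest in both, with 3955 CPM of these markers and 72.0 CPM of G6pdx, and HFD + IgG1 replicate 6 was the highest of its group in both. The part of these cells in the G6pdx and Pgd values was not tested.

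**Figure D1:**
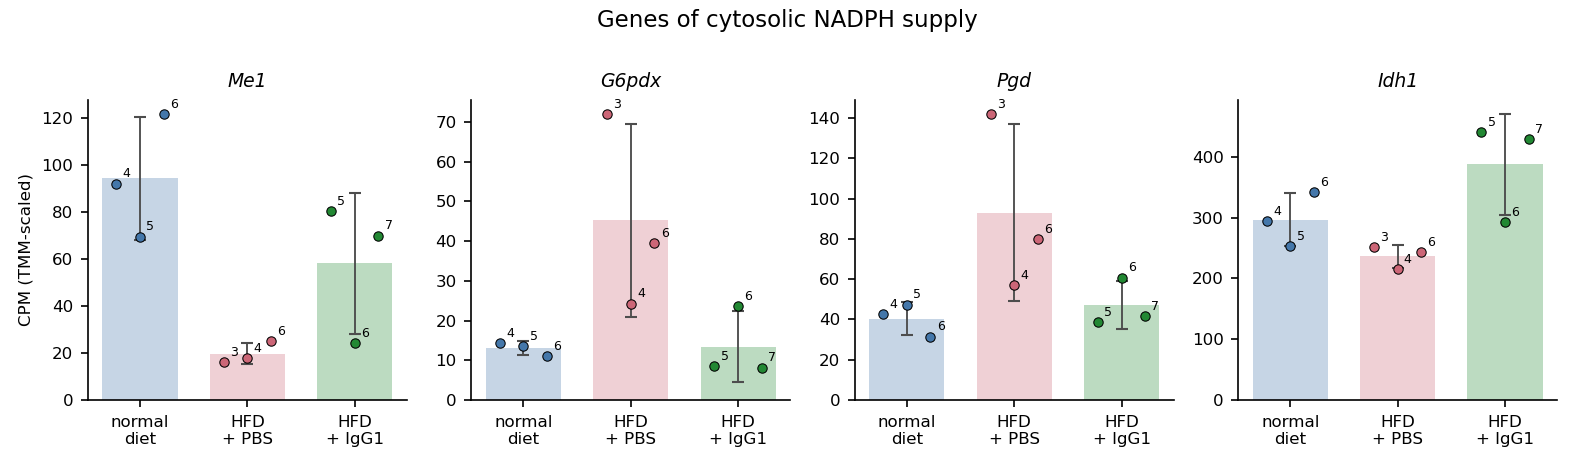
Level of 4 genes of cytosolic NADPH supply in CPM (TMM-scaled, linear axis from 0), for normal diet, HFD + PBS and HFD + IgG1, with points for libraries numbered by replicate, bars for the mean and error bars for 1 SD of 3 libraries. Me1 was 16.3 to 25.0 CPM in HFD + PBS and 69.6 to 122 CPM on normal diet, G6pdx was 24.3 to 72.0 CPM against 11.1 to 14.3 CPM, and HFD + IgG1 replicate 6 lay apart from replicates 5 and 7 in all 4 genes.

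Chain building starts with the acetyl-CoA carboxylases. Acaca (ENSMUSG00000020532, chromosome 11, 84129672 to 84401651), the cytosolic carboxylase that supplies malonyl-CoA for synthesis, stood at 64.0, 67.5 and 48.0 CPM on normal diet, 84.2, 103 and 58.2 CPM in HFD + PBS, and 145, 109 and 81.3 CPM in HFD + IgG1. Only HFD + IgG1 and normal diet did not overlap. Their log2 fold change was 0.90 (SE 0.26, adjusted p = 0.543 by edgeR), against 0.45 (SE 0.26) for each of the other comparisons. Acacb (ENSMUSG00000042010, chromosome 5, 114146535 to 114250761), the carboxylase at the mitochondrial membrane whose malonyl-CoA restrains fatty acid oxidation, was at 89.5, 71.9 and 43.6, then 45.8, 69.8 and 70.1, then 73.9, 60.9 and 26.4 CPM in the 3 groups. All 3 groups overlapped for Acacb, with log2 fold changes of -0.14, -0.20 and -0.35 (SE 0.38 each). Per kilobase of exon, the ratio of Acaca to Acacb was 0.404, 0.530 and 0.622 on normal diet, 1.04, 0.835 and 0.469 in HFD + PBS, and 1.105, 1.01 and 1.74 in HFD + IgG1.

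Fasn (ENSMUSG00000025153, chromosome 11, 120805846 to 120824547) encodes fatty acid synthase, the multifunctional enzyme that assembles palmitate. It stood at 98.7, 114 and 88.6 CPM on normal diet, 395.5, 271 and 144 CPM in HFD + PBS, and 745, 316 and 381 CPM in HFD + IgG1. Every high-fat library lay above every normal diet library, and the 2 high-fat groups overlapped. Means were 100.5 ± 12.9, 270.2 ± 126 and 481 ± 232 CPM (SD, n = 3). The HFD + PBS mean was 2.69 times that of normal diet, a log2 fold change of 1.43 (SE 0.40, adjusted p = 0.123 by edgeR). HFD + IgG1 was at 0.83 against HFD + PBS (SE 0.40, adjusted p = 0.233 by edgeR) and at 2.26 against normal diet (SE 0.41, adjusted p = 0.362 by edgeR).

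Scd1 and Elovl6 finish the chain. Scd1 (ENSMUSG00000037071, chromosome 19, 44394455 to 44407879) encodes the desaturase that turns stearate and palmitate into monounsaturated acids. It stood at 876, 316 and 1084 CPM on normal diet, 3335, 3621 and 4334 CPM in HFD + PBS, and 10200, 4805 and 6242 CPM in HFD + IgG1. The 3 groups were fully separated, in the order normal diet, HFD + PBS, HFD + IgG1. Means were 759 ± 397, 3763 ± 514 and 7081 ± 2791 CPM (SD, n = 3). The first step was 4.96-fold, a log2 fold change of 2.31 (SE 0.46, adjusted p = 0.078 by edgeR). The second was 1.88-fold, at 0.91 (SE 0.44, adjusted p = 0.233 by edgeR), and HFD + IgG1 against normal diet gave 3.22 (SE 0.47, adjusted p = 0.236 by edgeR). Elovl6 (ENSMUSG00000041220, chromosome 3, 129532355 to 129638495), the elongase that extends palmitate to stearate, was at 37.5, 59.8 and 64.6, then 88.8, 61.8 and 27.0, then 108, 73.9 and 59.9 CPM. Its groups overlapped throughout, with log2 fold changes of 0.13, 0.45 and 0.58 (SE 0.41 each).

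Scd1 dominated the pathway's RNA. Per kilobase of exon, its mean over the 9 libraries was 791 RPKM (CPM per kilobase), followed by 35.8 RPKM for Acly, 25.9 for Fasn, 19.3 for Pklr, 16.1 for Mlxipl, 14.9 for Me1, 14.65 for Thrsp, 10.05 for Elovl6, 6.37 for Acacb and 4.95 for Acaca. The 10 genes took 0.0966% to 0.172% of all counts on normal diet, 0.427% to 0.547% in HFD + PBS and 0.597% to 1.04% in HFD + IgG1. Scd1 made up 32.3% to 60.9% of the 10 genes' counts on normal diet and 78.0% to 87.6% in the high-fat groups, so the summed share is mostly a reading of Scd1. The ratio of Scd1 to Fasn CPM was 2.77 to 12.2 on normal diet, 8.43 to 30.03 in HFD + PBS and 13.7 to 16.4 in HFD + IgG1.

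Thrsp and Mlxipl regulate the pathway. Thrsp (ENSMUSG00000035686, chromosome 7, 97412938 to 97417730) encodes Spot 14, a small nuclear and cytosolic protein that thyroid hormone and carbohydrate induce and that accompanies lipogenesis. It stood at 6.78, 9.13 and 13.9 CPM on normal diet, 37.2, 40.5 and 18.3 CPM in HFD + PBS, and 90.3, 28.2 and 44.4 CPM in HFD + IgG1. As with Fasn, the high-fat libraries were all above normal diet and overlapped each other. The log2 fold change was 1.69 for HFD + PBS against normal diet (SE 0.48, adjusted p = 0.128 by edgeR), 0.76 for HFD + IgG1 against HFD + PBS (SE 0.46, adjusted p = 0.332 by edgeR) and 2.45 for HFD + IgG1 against normal diet (SE 0.49, adjusted p = 0.414 by edgeR). Mlxipl (ENSMUSG00000005373, chromosome 5, 135089890 to 135138382), the ChREBP gene, stood at 102, 91.3 and 108 CPM on normal diet, 36.7, 89.0 and 92.9 CPM in HFD + PBS, and 125, 88.0 and 71.3 CPM in HFD + IgG1. Its groups overlapped in every comparison, with log2 fold changes of -0.46, 0.38 and -0.09 (SE 0.33 each). The low HFD + PBS value is that of replicate 3, which also had the lowest summed level of 10 hepatocyte markers, 52100 CPM against 74200 to 174000 CPM in the other 8 libraries.

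**Figure D2:**
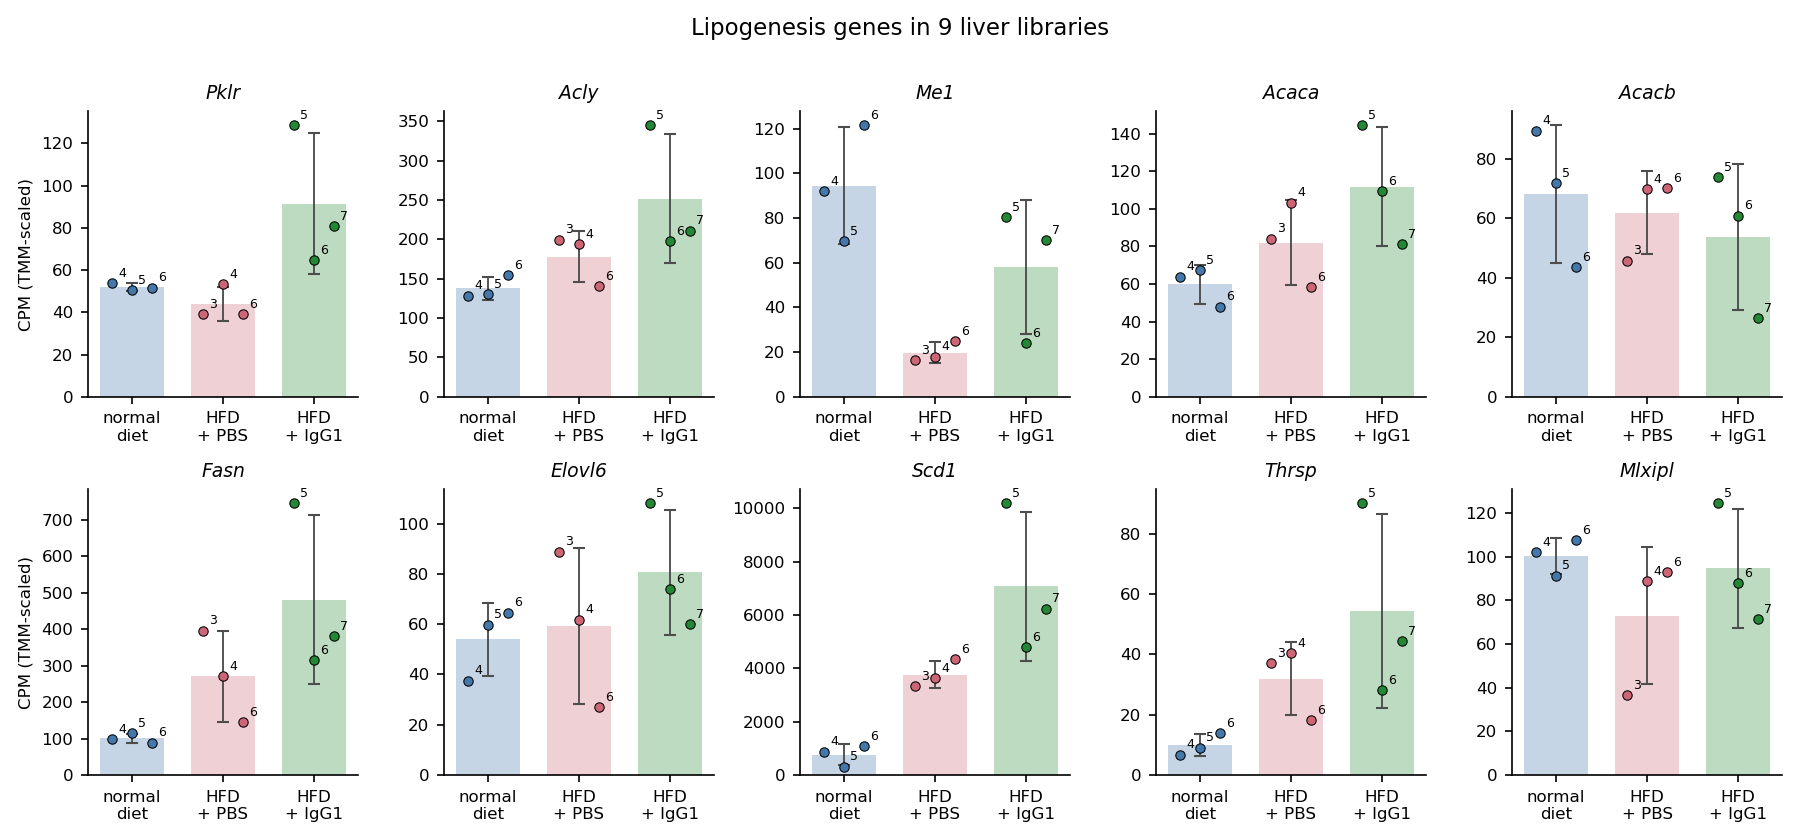
Level of the 10 genes in CPM (TMM-scaled, linear axes from 0, each gene on its own axis) in normal diet, HFD + PBS and HFD + IgG1, with points for libraries numbered by replicate, bars for the mean and error bars for 1 SD of 3 libraries. Scd1, Fasn and Thrsp were higher in all 6 high-fat libraries than in any normal diet library, Me1 was lowest in HFD + PBS, and HFD + IgG1 replicate 5 was the highest library for 8 of the 10 genes.

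The comparison of HFD + PBS with normal diet addressed the state of the pathway after the high-fat diet. Scd1, Fasn and Thrsp were higher and Me1 was lower, without overlap between the groups, and the other 6 genes overlapped. None of the 10 passed edgeR at an adjusted p under 0.05, and 0% of all 14763 tested genes did. At an unadjusted p under 0.05 there were 4 of 10, the same 3 higher and Me1 lower, where 20.8% of all genes had such a p (9.41% higher and 11.4% lower). Groups did not overlap for 28.3% of all genes, 13% on the higher side and 15.3% on the lower side. The median log2 fold change of the 10 genes was 0.25, with 6 positive and 4 negative, beside -0.003 over all genes. DESeq2, on the same counts, called Me1 (adjusted p = 1.13e-05), Scd1 (adjusted p = 5.95e-06), Fasn (adjusted p = 0.00714) and Thrsp (adjusted p = 0.00578), with 8.02% of all genes called, and limma-voom called 0 genes. HFD + IgG1 replicate 6 enters this comparison only through the shared estimate of the spread and the scaling. When it was left out, edgeR called Me1 and Scd1, and 576 genes in all, which is 3.79% of the 15214 tested in that fit.

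The comparison of the 2 high-fat groups addressed the state of the pathway after the antibody on the same diet. Pklr and Me1 had the 2 lowest p-values of the 10 genes, both higher in HFD + IgG1, and Pklr and Scd1 were the 2 genes whose groups did not overlap. The log2 fold change was positive for 9 of the 10, all but Acacb, with a median of 0.63 beside 0.04 over all genes. None passed edgeR at an adjusted p under 0.05, as was the case for 0% of all genes, and 2 of 10 had an unadjusted p under 0.05, near the 24.2% of all genes. Non-overlap on the higher side, 2 of 10, stood beside 15.3% of all genes. DESeq2 called Pklr (adjusted p = 0.00777) and Me1, with 8.57% of all genes called. Without HFD + IgG1 replicate 6, edgeR called the same 2 genes, and 2356 genes in all, which is 15.5% of the 15214 tested in that fit.

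The third comparison, HFD + IgG1 against normal diet, shares its libraries with the other comparisons. Pklr, Acly, Acaca, Fasn, Scd1 and Thrsp were higher in every HFD + IgG1 library than in any normal diet library, 6 of 10 genes where 5.54% of all genes were. The same 6 had an unadjusted p under 0.05, beside 7.04% of all genes, 3.83% on the higher and 3.21% on the lower side. No member was lower without overlap, beside 6.41% of all genes. None passed edgeR's adjusted threshold, nor did any of the 14763 genes (0%), and the median log2 fold change was 0.84 beside 0.003 over all genes. DESeq2 called Fasn (adjusted p = 2.23e-05), Scd1 (adjusted p = 3.75e-11) and Thrsp (adjusted p = 6.9e-05), with 0.752% of all genes called. In a single test for any difference among the 3 groups, 7 of the 10 had an unadjusted p under 0.05, beside 21.7% of all genes, and the lowest adjusted p by edgeR was 0.13, for Scd1. The exceptions were Acacb, Elovl6 and Mlxipl.

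**Figure D3:**
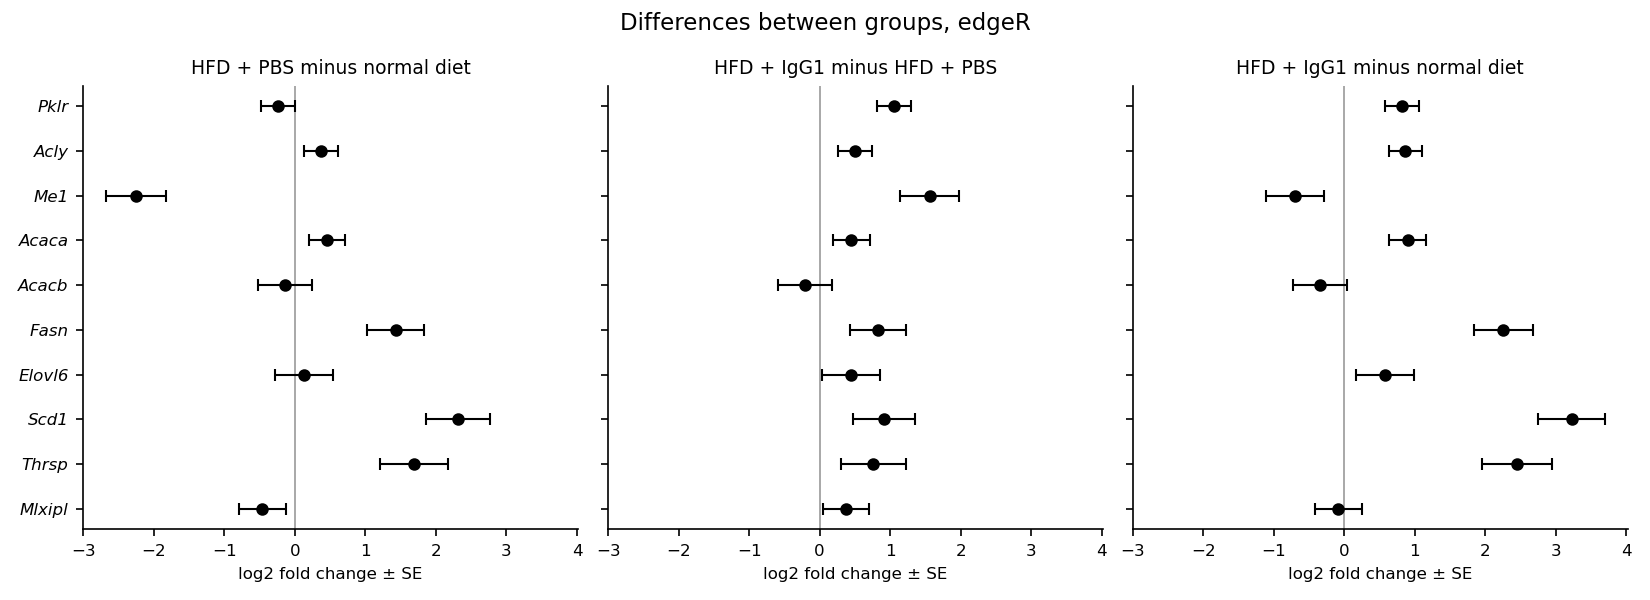
Log2 fold change of the 10 genes by edgeR in the 3 comparisons (shared horizontal axis), with error bars of 1 SE. The largest positive values were those of Scd1, 2.31 and 3.22 against normal diet, the lowest was that of Me1, -2.26 in HFD + PBS against normal diet, and Acacb and Mlxipl lay between -0.46 and 0.38 in all 3 panels.

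Much of the difference between the 2 high-fat groups rested on 1 library. HFD + IgG1 replicate 5, the library with Apoe counts, held the highest value of 8 of the 10 genes, all but Me1 and Acacb. Without it the median log2 fold change of HFD + IgG1 against HFD + PBS was 0.175 instead of 0.63, with Fasn at 0.33, Thrsp at 0.14, Acly at 0.16 and Scd1 at 0.52. Pklr at 0.69 (adjusted p = 0.437 by edgeR) and Me1 at 1.21 (adjusted p = 0.437 by edgeR) were the 2 genes with an unadjusted p under 0.05, where 11.2% of all genes did. With all 3 libraries that contradict their labels left out the median was 0.016. Acaca was then at -0.01, Thrsp at -0.15 and Elovl6 at -0.21, on the other side of 0 from their values with all libraries. In the same fit Acly was at 0.01, Fasn at 0.02, Pklr at 0.61 and Me1 at 1.40. Pklr and Me1 again were the 2 with an unadjusted p under 0.05, beside 8.4% of all genes. The fit without 3 libraries has 2 in each group.

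The difference between the high-fat diet and normal diet was present without those libraries. Without the 3, HFD + PBS against normal diet gave 1.86 for Fasn, 1.86 for Scd1, 1.94 for Thrsp and -2.61 for Me1, and 5 of the 10 genes had an unadjusted p under 0.05 (Acaca was added, at 0.77), where 15.1% of all genes did. HFD + IgG1 against normal diet gave 1.88 for Fasn, 2.48 for Scd1 and 1.79 for Thrsp in the same fit. There 6 of the 10 had an unadjusted p under 0.05 beside 3.54% of all genes, with Me1 lower among them, and Pklr no longer did. With HFD + IgG1 replicate 5 alone left out, 7 of the 10 did in that comparison, beside 5.28% of all genes. For any difference among the groups, 5 of the 10 did without the 3 libraries, beside 9.85% of all genes, and 6 without replicate 5, beside 15.2%. HFD + PBS against normal diet had 4 without replicate 5, beside 20% of all genes.

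**Figure D4:**
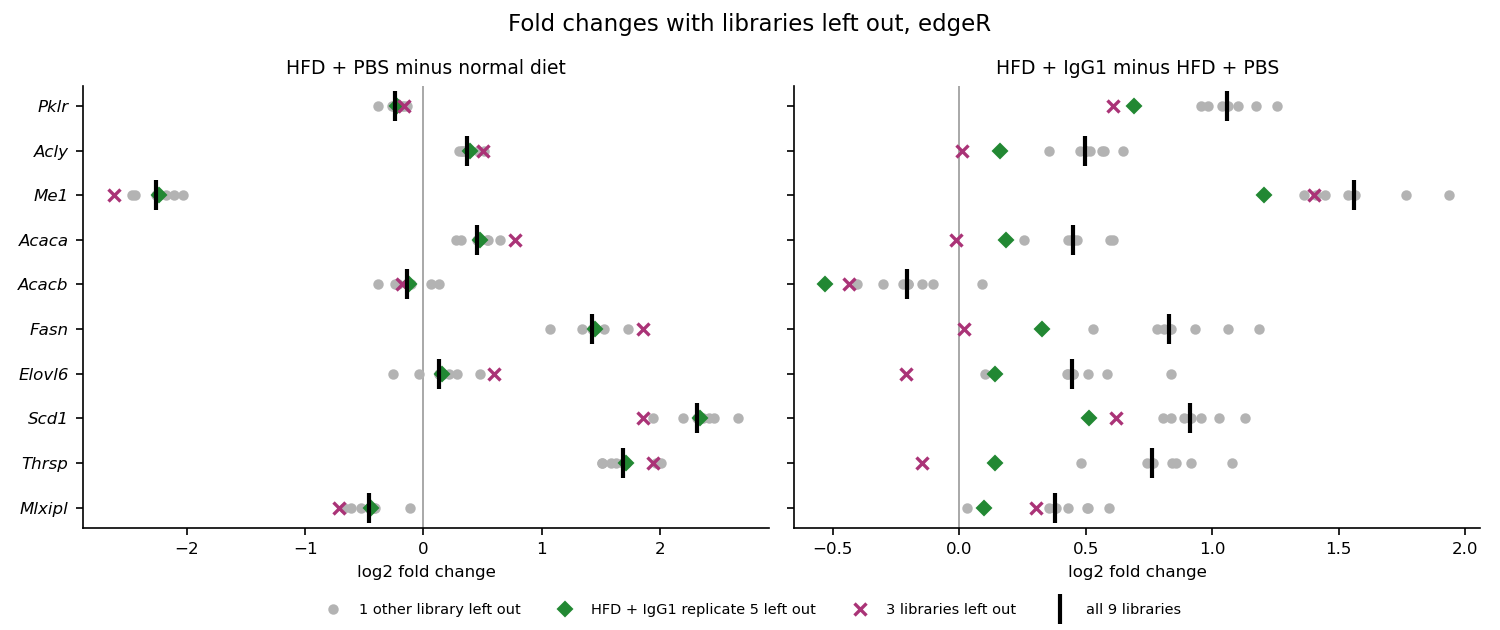
Log2 fold change of the 10 genes by edgeR with all 9 libraries (black bar), with each other library left out (grey), without HFD + IgG1 replicate 5 (green diamond) and without the 3 libraries that contradict their labels (cross), for HFD + PBS minus normal diet and HFD + IgG1 minus HFD + PBS (separate horizontal axes). In the first panel Fasn, Scd1 and Thrsp stayed above 1 and Me1 below -2 throughout, while in the second Fasn moved from 0.83 to 0.33 and 0.02 and Me1 stayed above 1.

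Cell type markers also differed among the libraries. The summed level of 10 hepatocyte markers was 77350 to 93480 CPM on normal diet, 52100 to 95990 CPM in HFD + PBS and 87960 to 174000 CPM in HFD + IgG1, where replicate 5 was highest, and 3 of the 10 had an unadjusted p under 0.05 as higher in HFD + IgG1 than in HFD + PBS. Macrophage markers were 1760 to 2388, 2343 to 2909 and 739.7 to 2589 CPM in the 3 groups, lowest in HFD + IgG1 replicates 5 and 7. In HFD + IgG1 against HFD + PBS, 6 of 10 macrophage, 5 of 10 stellate and endothelial, 3 of 8 lymphocyte, 3 of 7 cholangiocyte and 2 of 8 neutrophil markers were lower at an unadjusted p under 0.05. Over all genes 12.6% were higher and 11.6% lower at such a p in that comparison. These marker counts were made with all 9 libraries only. HFD + PBS replicate 3 had the lowest hepatocyte marker sum. It had the highest Fasn, Acly and Elovl6 levels of its group, and the lowest Me1, Acacb, Scd1 and Mlxipl levels. The part of cell content in the differences of the 10 genes was not tested. Adipose tissue, which also makes fatty acids, was close to undetected: 10 adipocyte markers summed to 11.4 to 17.0 CPM in all libraries, Lep and Lgals12 had 0 counts, and 6 of the 10 had at most 3 counts in each library.

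The genes that govern SREBP processing and liver X receptor signalling were followed beside the enzymes. Srebf1 stood at 49.0, 64.6 and 52.5 CPM on normal diet, 97.2, 74.0 and 54.8 CPM in HFD + PBS, and 311, 102 and 213 CPM in HFD + IgG1. All HFD + IgG1 libraries were above the 6 others, replicate 6 by the least. The log2 fold change was 0.45 (SE 0.36), 1.47 (SE 0.37, adjusted p = 0.14 by edgeR) and 1.92 (SE 0.38, adjusted p = 0.414 by edgeR) in the 3 comparisons. Without HFD + IgG1 replicate 5 the second of these was 1.02, and without the 3 libraries that contradict their labels the first was 0.79 and the second 0.83. DESeq2 called Srebf1 in the comparisons with HFD + IgG1. Counts per gene do not separate the SREBP-1a and SREBP-1c transcripts.

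Insig1, a target of SREBP that retains it in the endoplasmic reticulum, stood at 151, 113.5 and 112, then 309, 238 and 125.5, then 570.3, 279.9 and 430.3 CPM. Its order over the libraries was close to that of Fasn, with log2 fold changes of 0.84, 0.93 and 1.77 (SE 0.35 each). The second was 0.62 without HFD + IgG1 replicate 5 and 0.33 without the 3 libraries. With all 9 libraries Insig2, Srebf2 and Nr1h3, the liver X receptor alpha gene, lay within 0.51 of 0 in all 3 comparisons. Scap, the SREBP escort, was at -0.47 (SE 0.17) and 0.47 (SE 0.17) in the first pair, the latter 0.28 without HFD + IgG1 replicate 5. Without the 3 libraries Srebf2 was at 0.69 in HFD + PBS against normal diet. In HFD + IgG1 against normal diet Srebf2 was then at 0.59 and Insig2 at -0.625. Of the 16 genes listed for this control, 0 passed edgeR. At an unadjusted p under 0.05 there were 1 higher and 4 lower in HFD + PBS against normal diet, beside 20.8% of all genes. In HFD + IgG1 against HFD + PBS there were 3 higher and 1 lower, near the 24.2% of all genes. Without the 3 libraries the first comparison had 2 higher and 1 lower, beside 15.1% of all genes, and the second 0, beside 8.4%. Without replicate 5 alone the second had 1 higher and 0 lower, beside 11.2%.

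Glucose crosses the hepatocyte membrane through GLUT2, the transporter encoded by Slc2a2. Slc2a2 stood at 158.8, 302.4 and 239.3 CPM on normal diet, 126.6, 134.1 and 127.5 CPM in HFD + PBS, and 278.6, 159.6 and 174.1 CPM in HFD + IgG1. HFD + PBS was below both other groups without overlap, and those 2 groups overlapped each other. The log2 fold change was -0.85 (SE 0.27, adjusted p = 0.142 by edgeR) for HFD + PBS against normal diet and 0.66 (SE 0.27, adjusted p = 0.18 by edgeR) for HFD + IgG1 against HFD + PBS, comparisons that share the HFD + PBS libraries. DESeq2 called Slc2a2 in the first of these (adjusted p = 0.0445), where it called 8.02% of all genes. Elovl2, Cpt1a, Gpd1, G6pc and Txnip, described below, were also called by DESeq2 in that comparison, with lower adjusted p-values. Without HFD + IgG1 replicate 5 the Slc2a2 value for HFD + IgG1 against HFD + PBS was 0.33 (adjusted p = 0.562 by edgeR). Of the 15 genes of glycolysis and fructose use, 0 passed edgeR. At an unadjusted p under 0.05 there were 1 higher and 1 lower in HFD + PBS against normal diet, beside 20.8% of all genes. In HFD + IgG1 against HFD + PBS there were 2 higher and 0 lower, beside 24.2% of all genes. Without replicate 5 there were 0 in the latter, beside 11.2%.

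Genes that carbohydrate induces through ChREBP had patterns other than that of Pklr. Txnip, a textbook target, stood at 162, 160.4 and 284 CPM on normal diet, 88.3, 105.5 and 95.6 CPM in HFD + PBS, and 70.0, 84.0 and 52.4 CPM in HFD + IgG1. The groups were fully separated in descending order of level, with log2 fold changes of -1.07 (SE 0.25, adjusted p = 0.0888 by edgeR), -0.49 (SE 0.25) and -1.55 (SE 0.26, adjusted p = 0.253 by edgeR). Its relative Arrdc4 was at 0.51 (SE 0.32), -1.17 (SE 0.32) and -0.66 (SE 0.32), and G6pc, glucose-6-phosphatase, at -1.97 (SE 0.55), 0.08 (SE 0.53) and -1.89 (SE 0.54), the second being -0.03 without HFD + IgG1 replicate 5. Gpd1, which makes glycerol-3-phosphate, followed Me1 instead, at -1.34 (SE 0.30) and 1.06 (SE 0.30). Of the 10 genes in this list, 3 of which are also in the glycolysis list, 0 passed edgeR. At an unadjusted p under 0.05 there were 0 higher and 5 lower in HFD + PBS against normal diet, beside 20.8% of all genes in both directions, and the list's median was -0.79. In HFD + IgG1 against HFD + PBS there were 2 higher, Gpd1 and Slc2a2, and 1 lower, Arrdc4, with a median of 0.16. The share of all genes there was 24.2% in both directions. Without HFD + IgG1 replicate 5, Gpd1 at 0.82 and Arrdc4 at -0.99 kept an unadjusted p under 0.05, and Slc2a2 at 0.33 did not.

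**Figure D5:**
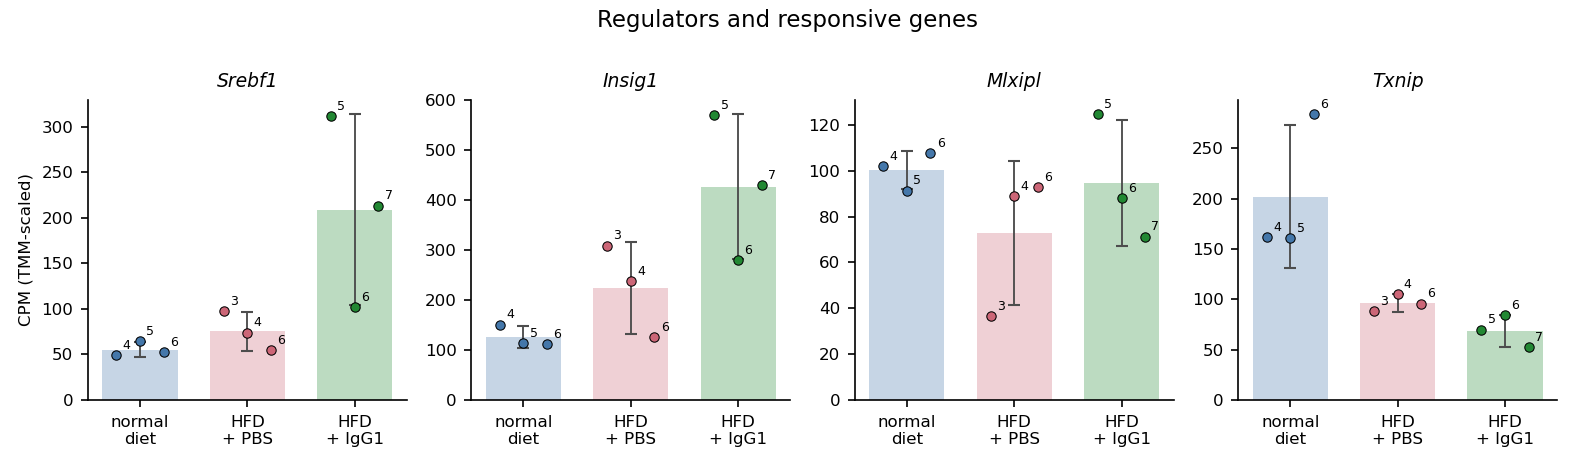
Level of Srebf1, Insig1, Mlxipl and Txnip in CPM (TMM-scaled, linear axes from 0, each gene on its own axis), with points for libraries numbered by replicate, bars for the mean and error bars for 1 SD of 3 libraries. Srebf1 was 102 to 311 CPM in HFD + IgG1 and 49.0 to 97.2 CPM in the other 6 libraries, Txnip went the other way from 160.4 to 284 CPM on normal diet to 52.4 to 84.0 CPM in HFD + IgG1, and Mlxipl overlapped across the groups.

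Carbon supply and carboxylase control completed the pathway. Slc25a1, the mitochondrial citrate exporter, stood at 116 ± 22.2, 116 ± 12.3 and 179 ± 37.4 CPM (SD, n = 3), with HFD + IgG1 above HFD + PBS without overlap at a log2 fold change of 0.625 (SE 0.20, adjusted p = 0.141 by edgeR). Acss2, which makes acetyl-CoA from acetate, was at 0.65 (SE 0.31), 0.49 (SE 0.30) and 1.14 (SE 0.31). The second of these was 0.10 without HFD + IgG1 replicate 5 and -0.16 without the 3 libraries that contradict their labels. All 10 genes of carbon supply were positive in HFD + IgG1 against HFD + PBS, 3 with an unadjusted p under 0.05, near the 24.2% of all genes, and 0 past edgeR. Without replicate 5 that p was reached by 1, Slc25a1, beside 11.2% of all genes. Without the 3 libraries it was reached by 0, beside 8.4% of all genes, with 9 of 10 positive. Mid1ip1, a partner of Thrsp that promotes polymerisation of the carboxylases, was at 0.68, 0.83 and 1.51 (SE 0.36, 0.36 and 0.37), the second being 0.53 without replicate 5 and 0.30 without the 3 libraries. Cpt1a, the mitochondrial fatty acid import enzyme that malonyl-CoA inhibits, stood at 634, 909.7 and 554 CPM on normal diet against 263 to 387 CPM in the 6 high-fat libraries, a log2 fold change of -1.05 (SE 0.23, adjusted p = 0.0786 by edgeR) for HFD + PBS. Prkaa2, the AMPK subunit gene, was at -0.70 (SE 0.20) and 0.71 (SE 0.20) in the comparisons with HFD + PBS. Of the 12 genes of carboxylase control 0 passed edgeR. In HFD + PBS against normal diet 1 higher and 4 lower had an unadjusted p under 0.05, beside 20.8% of all genes. Without the 3 libraries there were 0 higher and 3 lower, beside 15.1% of all genes.

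Among the genes closest to Fasn over the 9 libraries, by Pearson correlation of log2 CPM among 13213 genes, were Fam45a (r = 0.97), Insig1 (r = 0.96), Aldoc (r = 0.96) and Aacs (r = 0.95). These are descriptions of shared libraries, and with the group means taken out they were 0.915, 0.902, 0.896 and 0.88. Within the pathway Thrsp (r = 0.94), Acly (r = 0.93), Srebf1 (r = 0.90), Acaca (r = 0.89) and Scd1 (r = 0.83) were near Fasn, and Me1 (r = -0.34), Mlxipl (r = -0.26) and Acacb (r = -0.24) were not. With group means taken out Scd1 was at 0.04 and Elovl6 at 0.82. Within the groups, Fasn and Scd1 had the same order of libraries in HFD + IgG1 and opposite orders on normal diet and in HFD + PBS. The genes closest to Mlxipl were Cabyr (r = 0.96), Arhgef15 (r = 0.95), Slc39a8 (r = 0.95), Dapk1 (r = 0.94) and Piezo2 (r = 0.94).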

How the data were processed

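The deposited file is a table of whole-number counts per Ensembl gene ID for the 9 livers, not normalized by the authors. Per the submitters' processing notes, the tool was Bowtie 0.12.2 and the genome build mm10. The notes and labels at hand do not say how, or with which strand setting, reads were assigned to genes. Reads of overlapping antisense genes cannot be told apart from those of their partners. Per the labels' protocols, libraries came from 1 µg of total RNA.

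Names and exon lengths were taken from GENCODE M21, which named 54495 of the 54532 IDs and left 37 unnamed. Counts were analysed in R 4.3.3 with edgeR 4.0.16: TMM factors, filterByExpr (minimum count 10, minimum total 15), group means over all 9 libraries, robust glmQLFit and two-sided glmQLFTest, and Benjamini-Hochberg adjustment over 14763 genes with a threshold of 0.05. All libraries share 1 estimate of the spread (biological coefficient of variation 0.318). RPKM uses the union of a gene's exons. A permutation test of 3 against 3 libraries cannot go below 0.1, so none was made for single genes. The members, lists and tests were chosen with earlier results of these data known. Named genes were the 10 members, 12 fixed pathway genes and, per list and for the 2 comparisons with HFD + PBS, up to 3 genes with the smallest p. Some of these genes are not reported here. Likeness used log2 CPM with a prior count of 2 and genes of at least 1 CPM on average. The alternatives were DESeq2 1.42.0, limma-voom (limma 3.58.1), RLE and upper-quartile factors, no filter, only the 6 libraries compared, the replicate number as a block, each library left out, and the 3 libraries at odds with their labels left out. The workflow was tested on simulated counts. Limits from counts cover counting error only.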

Additional observations from a re-analysis of the deposited data

How the results depend on the processing

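Of 510 values of single genes under an alternative, 481 kept their direction and side of the threshold, 16 newly passed it, 13 reversed and 0 lost a call, since edgeR had called none. Numbers of genes called by edgeR were 0 in each comparison. For HFD + PBS against normal diet they were 274 with no filter on low counts, 1184 by DESeq2, 184 with only the 6 libraries compared and 2 without the 3 libraries that contradict their labels, and 0 to 576 with 1 library left out; the members among them were 1, 4, 1, none, and 0 to 2. For HFD + IgG1 against HFD + PBS the corresponding counts were 57 with no filter, 1265 by DESeq2 and 0 to 2356 with 1 library left out, with 1, 2 and 0 to 2 members. For HFD + IgG1 against normal diet they were 6 with no filter, 111 by DESeq2, 3 with 6 libraries and 0 to 6 with 1 left out, with 3 members called by DESeq2. For any difference among groups they were 228 with no filter, 1571 by DESeq2, 1 without the 3 libraries and 0 to 1791 with 1 left out, with 2 members unfiltered, 6 by DESeq2 and 0 to 6 with 1 left out. Among the fits with 1 library left out, the largest count in each of these came without HFD + IgG1 replicate 6. Members at an unadjusted p under 0.05 in HFD + IgG1 against HFD + PBS were 2, beside 24.2% of all genes. They were 4 by DESeq2, beside 25.5% of all genes, and 2 to 6 with 1 library left out. The 6 came without HFD + IgG1 replicate 6, beside 33.5% of all genes. For any difference they were 7, beside 21.7%, and 3 under the replicate block, beside 3.94%. The members' median log2 fold change was 0.549, 0.016 and 0.481 in the 3 comparisons without the 3 libraries, and 0.182 to 0.497, 0.175 to 0.856 and 0.513 to 0.966 with 1 library left out. Reversed in HFD + PBS against normal diet were Acacb at 0.138 and Elovl6 at -0.243 with the replicate block, and Acacb at 0.135 and 0.061 and Elovl6 at -0.039 and -0.257 with 1 library left out (ranges -0.384 to 0.135 and -0.257 to 0.481). In HFD + IgG1 against HFD + PBS, Acacb ranged from -0.528 to 0.089, the last without HFD + IgG1 replicate 7, and Acaca, Elovl6 and Thrsp were at -0.014, -0.211 and -0.146 without the 3 libraries. In HFD + IgG1 against normal diet, Acacb was at 0.122 and Mlxipl at 0.059 with the block, and Mlxipl ranged from -0.343 to 0.070, the last without HFD + IgG1 replicate 7. The cause of these moves was not tested. Upper-quartile factors shifted the genes at an unadjusted p under 0.05 from 1389 higher and 1687 lower to 1658 and 1369 for HFD + PBS against normal diet, and from 1863 and 1706 to 1369 and 1996 for HFD + IgG1 against HFD + PBS; no member reversed under that scaling or under RLE factors. Libraries with the same replicate number did not deviate together from their group means: 5 such pairs had correlations of -0.56 to 0.012, 0 of them over 0.1. With the replicate block edgeR called 0 genes in every comparison. It also called 0 without the block, so that number cannot show whether samples were paired. The lowest count of a member in any library was 111, for Thrsp, so none was near the limit of detection.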

Other observations

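Genes that remodel and store the product were followed beyond synthesis. Elovl2, an elongase of polyunsaturated fatty acids, stood at 632.8, 861.9 and 655.6 CPM on normal diet, 233, 223 and 259.7 CPM in HFD + PBS, and 611, 319.5 and 497.5 CPM in HFD + IgG1. No libraries overlapped between HFD + PBS and the other groups. By edgeR the log2 fold change was -1.59 (SE 0.25, adjusted p = 0.0627) against normal diet, and HFD + IgG1 was at 0.997 (SE 0.25, adjusted p = 0.14) against HFD + PBS. Fads2, the delta-6 desaturase gene, had -0.92 (SE 0.38) and 1.10 (SE 0.38), and Elovl5 had -1.06 (SE 0.31) and 0.66 (SE 0.31) in the same comparisons, which share the HFD + PBS libraries. Fads2 was at 0.65 in the second without HFD + IgG1 replicate 5, and at -0.38 and 0.47 without the 3 libraries that contradict their labels. Of 13 listed genes of chain modification other than the members 11 were tested, and 0 passed edgeR. In HFD + PBS against normal diet 2 higher and 5 lower had an unadjusted p under 0.05, beside 20.8% of all genes. The member Scd1, at 2.31, was not on the lower side.

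Triglyceride assembly held Gpam, the mitochondrial acyltransferase of the first step, at 150.1, 125.7 and 113.6 CPM on normal diet, 106.8, 65.3 and 93.7 CPM in HFD + PBS, and 297.9, 109.6 and 179.3 CPM in HFD + IgG1. Its log2 fold change between the high-fat groups was 1.14 (SE 0.33, adjusted p = 0.14 by edgeR), with no overlap, and 0.66 (adjusted p = 0.437 by edgeR) without HFD + IgG1 replicate 5. Dgat2, the acyltransferase of the last step, was at 0.20 (SE 0.20), 0.57 (SE 0.20) and 0.77 (SE 0.20) for HFD + PBS against normal diet, between the high-fat groups and for HFD + IgG1 against normal diet, of which the second was 0.36 without replicate 5 and 0.32 without the 3 libraries. Of 13 listed genes 12 were tested, 0 passed edgeR, and 4 were higher at an unadjusted p under 0.05 in HFD + IgG1 against HFD + PBS, beside 24.2% of all genes in either direction. Without replicate 5 Gpam alone was, beside 11.2% of all genes, and without the 3 libraries 0 were, beside 8.4%. Lpin1, a phosphatidate phosphatase, stood at 617 CPM in HFD + PBS replicate 4 and at 17.9 to 78.0 CPM in the other 8 libraries. Of 7 genes of mitochondrial fatty acid synthesis 6 were tested, and 0 passed edgeR. All 6 were negative in HFD + PBS against normal diet and positive in HFD + IgG1 against HFD + PBS, with medians of -0.37 and 0.44. These comparisons share the HFD + PBS libraries, so the opposite signs are not independent. At an unadjusted p under 0.05 there were 1 lower in the first, beside 20.8% of all genes, and 4 higher in the second, beside 24.2%. Without the 3 libraries the second median was 0.28, and the lowest unadjusted p there was 0.0541 by edgeR, for Mcat.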
